A study of Mus musculus with 4 samples.

Results

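The luminal-labelled and basal-labelled cells of the mouse mammary gland were compared with each other while both were kept in 100 μM baicalin, a flavonoid glycoside from the herb Scutellaria baicalensis. The comparison set 1 RNA-seq library of luminal-labelled cells against 1 library of basal-labelled cells, gene by gene, over the 19195 genes with a value above 0 in both libraries, out of 54446 genes in the deposited table. All cells came from wild type C57BL/6 mammary gland, were sorted by FACS and were grown as 3D cultures in Matrigel, and neither an age nor the number of animals pooled is given in the labels. The study's methods give CD24 and CD29 as the surface proteins of the sort, and also list antibodies to CD31, CD45 and TER119, a gate that would remove endothelial and blood cells before culture. The other pair of libraries, 1 per cell label, received DMSO in place of baicalin and served as the background for the same comparison, with 19181 genes above 0 in both. Expression is given in FPKM, the fragments of a gene scaled to the length of its exons and to the counted fragments of the library. A difference between the cell labels is log2((luminal-labelled FPKM + 1)/(basal-labelled FPKM + 1)), so a positive value means a higher level in the luminal-labelled library, and pairs of FPKM values are given with the luminal-labelled library first. Each condition has 1 library, so no test between conditions was possible, no p-value is given, and the cell label cannot be told apart from the culture and library that carried it. Each ratio of FPKM values is followed by its exact 95% interval (Clopper-Pearson, on the fragments behind both values), which covers counting error only.

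The 4 libraries held between 19356094 and 20648778 counted fragments, as recovered from the FPKM values, so that 1 fragment on 1 kilobase of exon is worth between 0.0484 and 0.0517 FPKM. Between 20898 and 22099 genes were above 0, with the higher numbers in both luminal-labelled libraries, and mitochondrial genes took 3.67% and 2.48% of the fragments with baicalin and 4.18% and 2.84% with DMSO.

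The mammary duct has an inner layer of luminal cells, which carry the simple keratins Krt8 and Krt18, tight junctions and, in part, hormone receptors, and an outer layer of basal cells, which carry Krt5 and Krt14, the smooth muscle proteins that contract to expel milk, and the hemidesmosomes that fix the cell to the basement membrane. The transcription factor p63, encoded by Trp63, keeps the basal state. The lists of basal and luminal markers went against the labels in both pairs of libraries, although not every luminal gene did. Of 16 basal cell markers, 14 passed a log2 difference of 1 toward the luminal-labelled baicalin library and 0 toward the basal-labelled one, against 4.88% and 2.81% of all genes compared. Of 12 luminal epithelial markers, 0 were higher in the luminal-labelled library and 7 in the basal-labelled one. With DMSO the same counts were 12 and 0 for the basal markers and 0 and 8 for the luminal markers, beside 4.6% and 3.6% of all genes. The 19 luminal transcription factors did not share this pattern. With DMSO 6 of them were higher in the luminal-labelled library and 1 in the basal-labelled one, and with baicalin 2 and 1 were. Whether the labels match the cells that were sorted was not tested. Every direction from one label to the other rests on them and would be the opposite if they were exchanged in both pairs. Whether a difference was wider or narrower with baicalin would then stay as given. The libraries are therefore named by their labels throughout, and a gene's place in the duct is background knowledge and not a statement on the cells sequenced.

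Krt5, the basal keratin, was at 2415 and 3.01 FPKM with baicalin, a ratio of 803-fold (678 to 958), and at 2015 and 128 FPKM with DMSO. Acta2, the smooth muscle actin of myoepithelial cells, was at 417 and 3.49 FPKM with baicalin and at 555 and 7.66 FPKM with DMSO. Trp63 was at 27 and 0.305 FPKM with baicalin and at 25.2 and 6.01 FPKM with DMSO. For all 3 genes the luminal-labelled library was the higher one under either treatment, and the basal-labelled baicalin library held the lowest of the 4 values. Itgb1, which encodes CD29, was the only basal marker with a negative difference under baicalin (-0.07, 232 and 243 FPKM), and this sign turned when the differences were centred on their median. Itga6, another integrin among the basal markers, was 2.06-fold (2.0 to 2.12) higher in the luminal-labelled library. On the luminal side, Krt8 was at 324 and 754 FPKM with baicalin, 2.33-fold (2.28 to 2.38) higher in the basal-labelled library, and at 383 and 1573 FPKM with DMSO. Krt18, which pairs with Krt8, was at 197 and 948 FPKM and at 298 and 1408 FPKM in the same order, so that both luminal keratins were higher in the basal-labelled library with and without baicalin. Cd24a, which encodes the second sorting protein, was at 158 and 269 FPKM, a difference of -0.77. The summed level of the 16 basal markers was 7631 FPKM in the luminal-labelled and 771 FPKM in the basal-labelled baicalin library, against 5855 and 2196 FPKM with DMSO, and that of the 12 luminal markers was 1425 and 3463 FPKM against 1621 and 4867 FPKM. Part of the fragments of Itga6 and Krt8 may belong to near-identical stretches of Gm29397 and Krt8-ps. In such bulk samples, fewer cells of a type and less RNA per cell cannot be told apart.

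**Figure D1:**
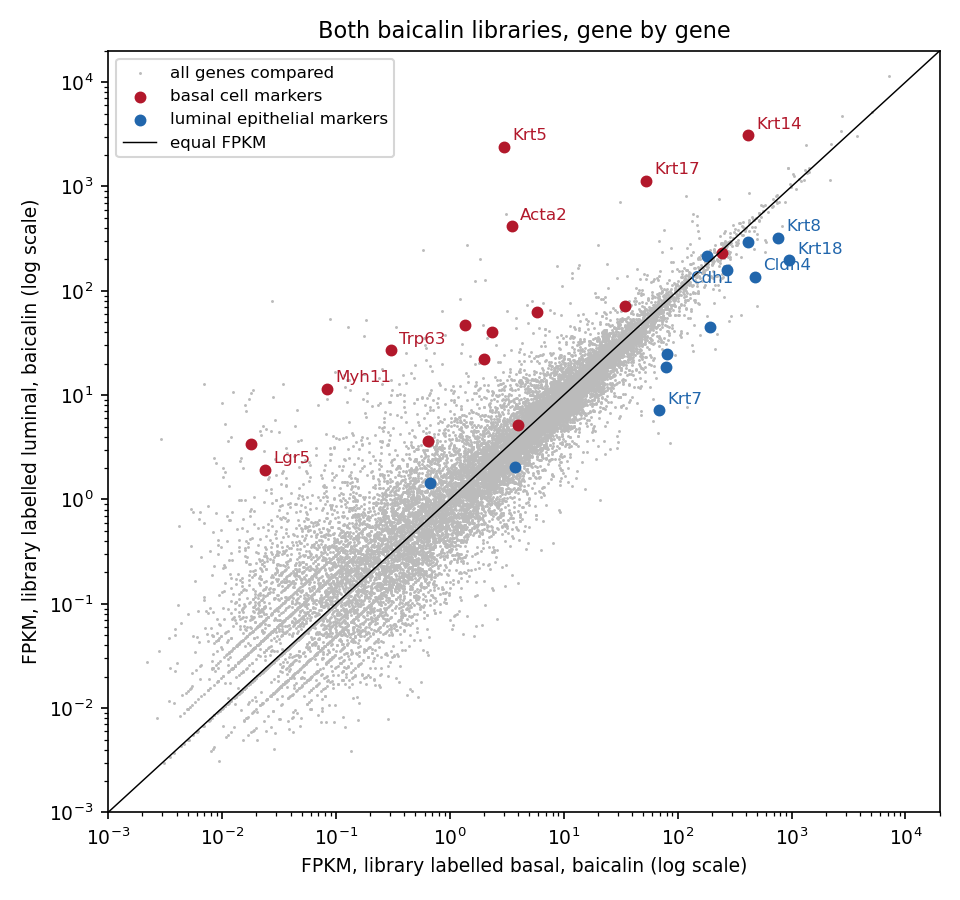
FPKM of each compared gene in the basal-labelled (horizontal, log scale) and luminal-labelled (vertical, log scale) baicalin library, 1 point per gene, with 16 basal cell markers in red and 12 luminal epithelial markers in blue; the line marks equal FPKM. Krt5, Acta2 and Trp63 lie far above the line and Krt7, Krt18 and Cldn4 below it.

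Over all genes the treated libraries differed in both directions, with the wider differences on the luminal-labelled side. A total of 937 genes were higher in the luminal-labelled library by more than 1 on the log2 scale (4.88%) and 540 in the basal-labelled library (2.81%), and the counting interval of the ratio lay on the same side of 1 for 912 and 529 of them. These shares, and 4.6% and 3.6% with DMSO, are the background for every list count in this report. Differences of more than 2 were found for 243 and 60 genes, and differences of more than 4 for 30 genes and 1 gene. The median difference over all genes was -0.02, and the central 90% of genes lay between -0.78 and 0.99. Outside this comparison, 2904 genes were above 0 only in the luminal-labelled baicalin library and 1703 only in the basal-labelled one. Of these, 111 and 43 were at 1 FPKM or more. Among protein-coding genes with at least 5 FPKM in a treated library, the largest differences toward the luminal-labelled library were those of Krt5, Dmkn, Krt6a, Col17a1, Acta2, Sostdc1, Krt16, Krt6b, Igfbp3, Dsc3, Sparc and Myl9, from 9.24 to 5.34. Sostdc1, a secreted inhibitor of BMP and Wnt ligands, was at 79.4 and 0.0277 FPKM with baicalin and at 108 and 2.15 FPKM with DMSO, the basal-labelled baicalin value resting on 1 fragment. Sparc, a matrix glycoprotein, was at 126 and 2.03 FPKM, and Igfbp3, which binds insulin-like growth factors, was at 123 and 1.67 FPKM. The largest differences toward the basal-labelled library were those of Ankrd1, Msln, Ntn1, Bglap3, Peg3, Krt7, Cp, Foxj1, Thsd4, Amot, Fn1 and Cytip, from -4.27 to -2.73. Ankrd1, a nuclear ankyrin repeat protein, was at 3.46 and 85 FPKM with baicalin and at 1.23 and 49.5 FPKM with DMSO. Msln, the cell surface protein mesothelin, was at 7.67 and 121 FPKM, and Foxj1, the regulator of ciliated cells, was at 3.1 and 29.3 FPKM. All 24 of these genes had a difference of the same sign with DMSO.

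The widest group difference was that of the stratified and stress keratins, the filament proteins of basal cells and of wounded epidermis. Of 11 listed, 10 could be compared, Krt13 being at 0 in every library but the basal-labelled baicalin one. Of the 10, 8 were higher in the luminal-labelled baicalin library and 0 in the basal-labelled one, with a median difference of 3.65 beside -0.02 for all genes. With DMSO, 4 of 10 were higher in the luminal-labelled library and the median was 0.89. Krt6a was at 539 and 3.14 FPKM with baicalin and at 107 and 67.3 FPKM with DMSO, and its interval under baicalin was 147- to 203-fold. Krt16, which pairs with Krt6a in stressed epithelium, was at 199.6 and 1.83 FPKM and at 37.9 and 19.5 FPKM. Both were higher with baicalin than with DMSO in the luminal-labelled cells and lower in the basal-labelled cells. Krt17, also induced by stress, was at 1140.0 and 53.1 FPKM and at 358 and 122 FPKM, and Krt14, the partner of Krt5, was at 3132 and 417 FPKM and at 2308 and 1494 FPKM. Krt15, a keratin of basal and progenitor cells, went the other way, from 42.6 and 0.485 FPKM with DMSO to 4.0 and 0.725 FPKM with baicalin, so that its difference narrowed from 4.88 to 1.54. Krt6a and Krt6b are near-identical over much of their length, and Krt5 shares a stretch with both, so the split of fragments among the 3 genes is uncertain. Of the simple keratins, Krt7, Krt8, Krt18 and Krt19 were higher in the basal-labelled library and Krt23 in the luminal-labelled one (6.0 and 0.599 FPKM), out of 6 compared, with a median of -1.43 under baicalin and -1.64 with DMSO. Krt7 held nearly the same difference under both treatments (-3.08 and -3.22), whereas that of Krt19 moved from -0.14 with DMSO to -1.64 with baicalin as its luminal-labelled level went from 105 to 25 FPKM.

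**Figure D2:**
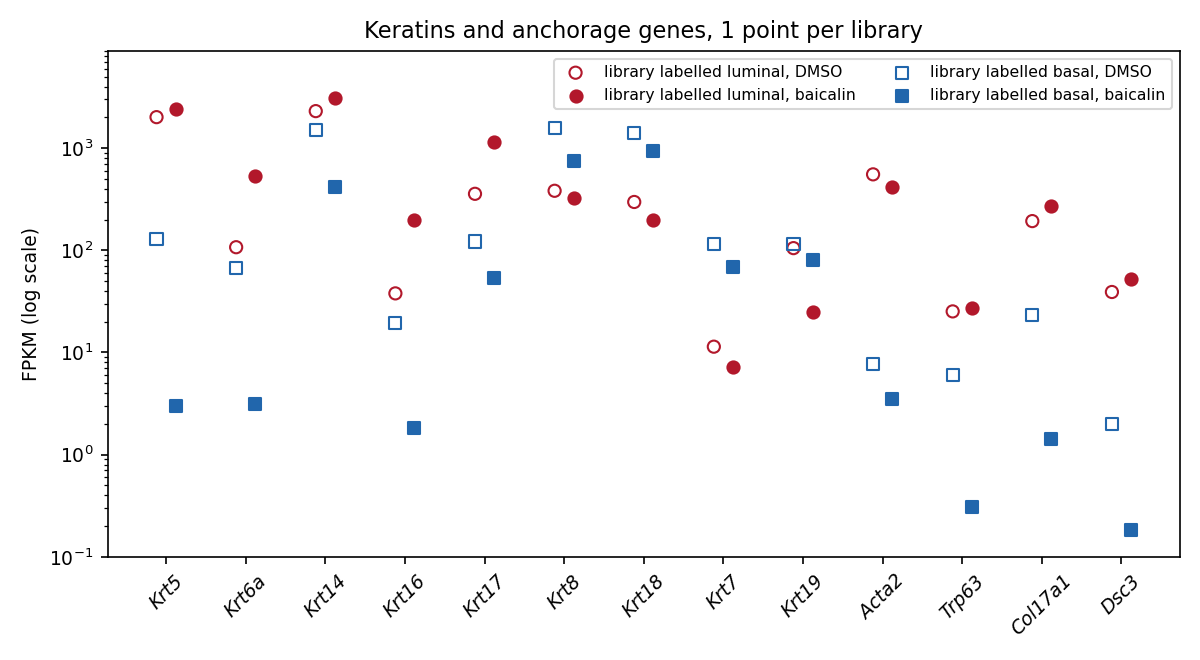
FPKM (log scale) of 9 keratins and 4 other genes in the 4 libraries, 1 point per library, circles for the luminal label and squares for the basal label, open for DMSO and filled for 100 μM baicalin. The filled squares of Krt5, Krt6a and Krt16 lie at 3.01, 3.14 and 1.83 FPKM, below every other library, while the 4 points of Krt7 keep their order.

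The contractile genes of myoepithelial cells differed under both treatments. Of 23 listed, 20 were compared, and the other 3 were at 0 in the basal-labelled baicalin library and above 0 in the luminal-labelled one. Of the 20, 10 were higher in the luminal-labelled baicalin library and 0 in the basal-labelled one (median 1.09). With DMSO the counts were 9 and 1 of 21 (median 0.67). Myl9, a regulatory myosin light chain, was at 44.8 and 0.127 FPKM with baicalin and at 84.7 and 1.65 FPKM with DMSO. Tagln, an actin-binding protein of smooth muscle, was at 47.2 and 1.36 FPKM and at 97.6 and 1.9 FPKM, although a gene on the opposite strand overlaps 62.4% of its exons and it is not given whether counting used strand. Myh11, the smooth muscle myosin heavy chain, was at 11.6 and 0.0843 FPKM and at 9.5 and 0.0729 FPKM. The range of the difference was wide within the list, since Tpm1 (-0.68), Cald1 (0.06) and Srf (0.15), the transcription factor that drives such genes, differed by less than 1. Oxtr, the oxytocin receptor that triggers milk ejection, had a smaller difference with baicalin (1.49) than with DMSO (3.28), its luminal-labelled level being 3.61 and 19.4 FPKM. Srf and its cofactors bind the CArG box, and the 250 bases before the start of transcription held this motif, on either strand, in 3 of the 19 listed genes with a RefSeq promoter (Myl9, Cnn2 and Srf, 15.8%) and in 1.62% of all 27025 genes with one. The window of Myl9 (RefSeq, GRCm38.p6, chr2:156775283-156775332, plus strand) is shown with the CArG box in capitals, because Myl9 had the largest contractile difference after Acta2:
Myl9: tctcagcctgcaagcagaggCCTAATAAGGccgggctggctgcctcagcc
The match is a description of these bases and does not show that a factor binds there.

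Genes that anchor the cell to its basement membrane and to its neighbours differed unevenly. Of 23 hemidesmosome and basement membrane genes, 9 were higher in the luminal-labelled baicalin library and 1 in the basal-labelled one, with a median of 0.47 (5 and 4 genes and 0.06 with DMSO). Col17a1, the transmembrane collagen of hemidesmosomes, was at 272 and 1.42 FPKM with baicalin and at 193 and 23.2 FPKM with DMSO, a ratio of 192-fold (165 to 224) under baicalin. Itgb4, its integrin partner, was at 141 and 53.7 FPKM with baicalin and nearly level with DMSO at 72.3 and 69.8 FPKM. Among the laminins, the chains Lama3 and Lamb3 had differences of 2.66 and 1.86, while Lama5, the alpha chain of laminin-511, was the member higher in the basal-labelled library at 39.3 and 119.8 FPKM. Of 11 desmosome genes compared, 7 were higher in the luminal-labelled library and 1, Pkp2 (2.54 and 11.4 FPKM), in the basal-labelled one, with a median of 1.07 (4 and 1 genes and 0.50 with DMSO). The desmosomal cadherins of stratified epithelium led this list, with Dsc3 at 52.3 and 0.182 FPKM and Dsg3 at 173 and 8.68 FPKM under baicalin, and at 39.1 and 1.98 FPKM and 70.8 and 23.1 FPKM with DMSO. Dsg2, the desmosomal cadherin of simple epithelium, was at 25.6 and 31.3 FPKM, a difference of -0.28.

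Tight junction genes, which seal the apical side of luminal cells, lay on the other side. Of 21, 0 were higher in the luminal-labelled baicalin library and 7 in the basal-labelled one, with a median of -0.80, and 18 of 21 were negative. The median with DMSO was -0.83, with 2 and 9 genes past the threshold. Cldn6 was at 4.5 and 30.4 FPKM, Cldn3 at 45.1 and 192 FPKM and Cldn4 at 136 and 476 FPKM with baicalin. These 3 claudins were 6.75-fold, 4.25-fold and 3.48-fold higher in the basal-labelled library. Cldn1, another claudin, had a difference of -2.21 with DMSO and -0.56 with baicalin, as its luminal-labelled level was 9.63 FPKM with DMSO and 32.1 FPKM with baicalin. Of 17 cadherin and mesenchymal genes, 6 were higher in the luminal-labelled library and 1, Fn1, in the basal-labelled one. Snai2, a repressor of epithelial genes that basal cells express, was at 25.2 and 0.415 FPKM with baicalin and at 19 and 4.26 FPKM with DMSO, and Vim, the mesenchymal filament protein, was at 40.0 and 2.37 FPKM and at 69.2 and 16.2 FPKM. Fn1, the matrix protein fibronectin, was at 72.3 and 498 FPKM and at 50.6 and 707 FPKM. E-cadherin (Cdh1) was at 215 and 180.0 FPKM, a difference of 0.25, and the epithelial splicing factor Esrp1 was at 42.2 and 49.9 FPKM, so the epithelial genes of the list were near equal in the treated libraries.

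Squamous differentiation genes build the cornified layers of skin. Of 24 listed, 17 were compared, and the other 7 were at 0 in the basal-labelled baicalin library and above 0 in the luminal-labelled one. Of the 17, 10 were higher in the luminal-labelled baicalin library and 0 in the basal-labelled one, with a median of 1.35. With DMSO, 7 and 2 of 18 passed the threshold and the median was 0.17. Dmkn, a secreted protein of differentiating keratinocytes, was at 246 and 0.585 FPKM with baicalin and at 81.6 and 6.04 FPKM with DMSO. Sprr1a, a cornified envelope precursor, was at 64 and 0.856 FPKM and at 15.8 and 5.87 FPKM, and Sfn, the 14-3-3 protein of stratified epithelium, was at 383 and 75.5 FPKM and at 176 and 152 FPKM. In each of these 3 genes the luminal-labelled level was higher with baicalin than with DMSO and the basal-labelled level was lower. Ly6d and Lgals7 differed widely as well (4.47 and 3.71), but with a luminal-labelled level near that of DMSO (713 and 749 FPKM for Ly6d, 273 and 318 FPKM for Lgals7). The envelope proteins Evpl (0.00) and Cstb (-0.05) were near 0.

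Transcription factors of the basal layer were split. Of 15, 6 were higher in the luminal-labelled baicalin library and 1 in the basal-labelled one, with a median of 0.31 (7 and 0 genes and 0.68 with DMSO). Trp63 and Snai2 led with 4.42 and 4.21, and Irx4 was at 11.2 and 0.0189 FPKM. Sox10, a factor of progenitor cells, was the member higher in the basal-labelled library (9.17 and 22.8 FPKM). Of 19 luminal transcription factors, 2 were higher in the luminal-labelled library (Myb at 3.9 and 0.116 FPKM and Hey1 at 5.44 and 0.785 FPKM) and 1 in the basal-labelled one, Elf3, an ETS factor of epithelial differentiation, at 2.73 and 11.3 FPKM. The median of this list was -0.00 under baicalin, with a sign that turned with centring, and 0.67 with DMSO. Foxa1, the pioneer factor of the oestrogen receptor, was at 9.3 and 1.8 FPKM with DMSO and at 1.09 and 1.35 FPKM with baicalin, so a difference of 1.88 became -0.17.

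The hormone receptors were low under both treatments. Esr1, the oestrogen receptor, was at 0.723 and 0.982 FPKM with baicalin and at 1.44 and 0.992 FPKM with DMSO, and Pgr, the progesterone receptor, was at 2.09 and 0.911 FPKM and at 4.81 and 1.08 FPKM. Neither differed by more than 1 in the treated cells. Of 14 genes on the hormone-sensing list, Ly6a, which encodes the Sca1 antigen, was higher in the luminal-labelled library (78.1 and 23.2 FPKM), and Areg and Cd14 were higher in the basal-labelled one. Cd14 also stands on the alveolar, immune and surface marker lists and is not particular to hormone-sensing cells. Areg, the EGF receptor ligand that relays oestrogen signals, was at 37.5 and 158 FPKM with baicalin and at 21.4 and 63.2 FPKM with DMSO, higher in the basal-labelled cells in both. Of 12 alveolar and milk genes compared, of 19 listed, 0 and 4 passed the threshold, and the casein genes Csn2, Csn1s1 and Csn1s2a were at 0 in at least 1 treated library. Lcn2, an iron-binding protein of secretory and inflamed epithelium, was at 57.3 and 297 FPKM. Elf5, the master factor of alveolar luminal cells, was at 3.18 and 5.63 FPKM with baicalin and at 6.51 and 14.9 FPKM with DMSO, a difference of -0.67 and -1.08. Socs2, a feedback inhibitor of growth hormone and prolactin signalling, was at 4.84 and 11.7 FPKM, 2.41-fold (2.23 to 2.6) higher in the basal-labelled library. Procr, the surface receptor that marks a stem cell population in the basal layer, differed by less than its counting interval in the treated libraries. It was at 11.8 and 12.3 FPKM, a ratio of 0.959-fold (0.846 to 1.09), and at 2.19 and 4.14 FPKM with DMSO, and the sign of its small difference turned with centring. Of 14 mammary stem cell genes, 6 were higher in the luminal-labelled library and 0 in the basal-labelled one, among them the Notch ligand Dll1 (31.9 and 4.3 FPKM) and the transcription factor Bcl11b (4.76 and 0.0243 FPKM). Lgr5, a receptor for R-spondins, was at 1.93 and 0.024 FPKM with baicalin and at 17.7 and 0.398 FPKM with DMSO. Its difference was 3.74 with DMSO and 1.52 with baicalin on the scale with 1 FPKM added. The ratio of the FPKM values themselves was not smaller with baicalin.

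Cell cycle genes separated the cell labels with baicalin and hardly at all with DMSO. Of 40 genes, 24 were higher in the luminal-labelled baicalin library (3 past a threshold of 2) and 1 in the basal-labelled one, with a median of 1.27. With DMSO 1 and 1 passed the threshold, and the median was 0.07. The difference was wider with baicalin by more than 1 for 21 of the 40, beside 2.18% of the 17787 genes above 0 in all 4 libraries. Mki67, the proliferation antigen Ki-67, was at 25.9 and 4.06 FPKM with baicalin, a ratio of 6.38-fold (5.93 to 6.87), and at 68.6 and 54 FPKM with DMSO. Ccna2, the S and G2 phase cyclin, was at 12.5 and 2.15 FPKM and at 29.8 and 26.5 FPKM, and Top2a, the topoisomerase of dividing cells, was at 21.1 and 5.17 FPKM and at 43.9 and 41.7 FPKM. All 3 were lower with baicalin than with DMSO under both labels, and the lowest level was that of the basal-labelled baicalin library. The mitotic genes Kif11 (1.96), Plk1 (1.55) and Cdk1 (1.42) had differences of the same sign. Ccnd2, a G1 cyclin, was higher in the luminal-labelled library under both treatments (55.3 and 3.85 FPKM and 20.2 and 0.867 FPKM). The exception on the other side was Cdkn1c, the cyclin-dependent kinase inhibitor p57, at 0.237 and 3.12 FPKM with baicalin and at 0.203 and 0.148 FPKM with DMSO. The G1 genes Ccnd1 (0.38), Cdk4 (0.06) and Cdk6 (-0.45) and the inhibitors Cdkn1a (-0.54) and Cdkn1b (-0.04) lay within 1. Genes on the opposite strand cover 12.5% of the exon bases of Ccna2, 23.4% of Ccnd1 and 19.7% of Cdk4, so part of their fragments may belong to a neighbour.

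The DNA replication genes behaved likewise. Of 30, 12 were higher in the luminal-labelled baicalin library (19 with a pseudocount of 0.1 or none, and 2 past a threshold of 2) and 0 in the basal-labelled one, and the median was 0.91. With DMSO none of the 30 passed the threshold in either direction and the median was 0.15. Mcm5, a subunit of the replicative helicase, was at 14 and 2.62 FPKM with baicalin and at 31.1 and 21.2 FPKM with DMSO. Rrm2, a subunit of ribonucleotide reductase, was at 21 and 4.48 FPKM and at 32 and 26.6 FPKM. Pcna, the sliding clamp, differed less (48 and 38.8 FPKM and 75.6 and 70.8 FPKM), and Pold1, a polymerase catalytic subunit, was the lowest member at -0.11. The summed level of the 40 cell cycle genes was 666 and 448 FPKM with baicalin and 835 and 767 FPKM with DMSO.

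**Figure D3:**
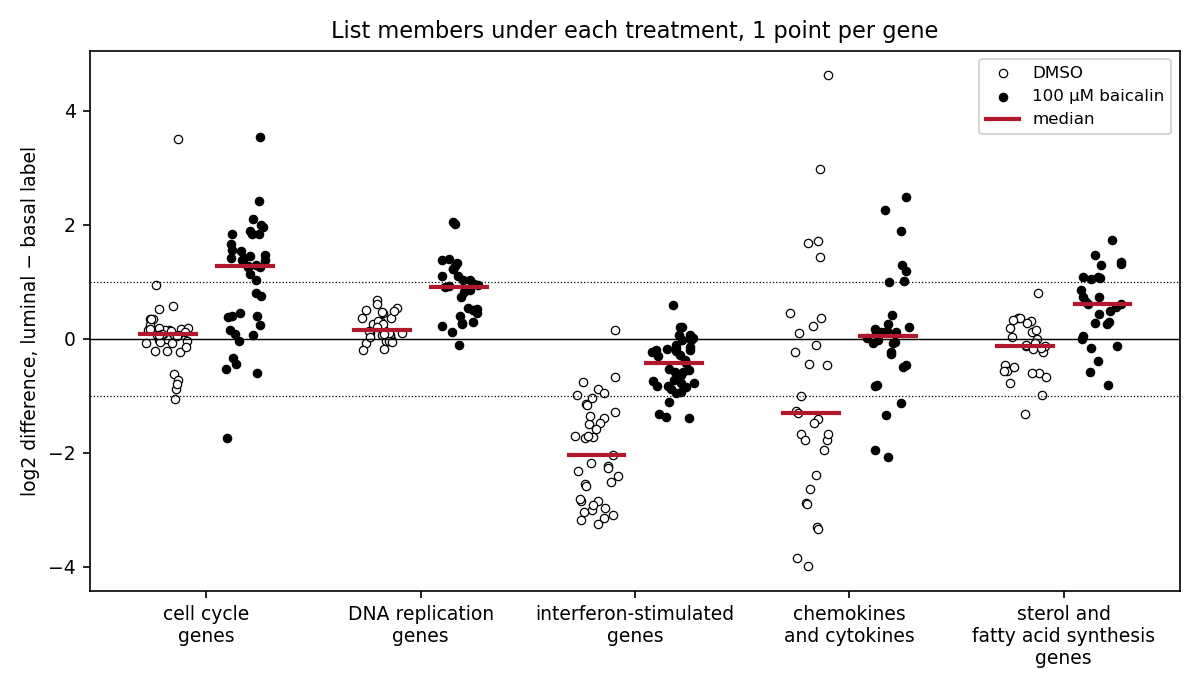
Log2 difference between the luminal-labelled and basal-labelled library for each member of 5 gene lists, 1 point per gene, open for DMSO and filled for 100 μM baicalin; red bars are medians and dotted lines mark differences of 1 and -1. The cell cycle median lies at 0.07 with DMSO and 1.27 with baicalin, and the interferon median at -2.05 and -0.42.

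Interferon-stimulated genes showed the reverse pattern, a wide difference with DMSO and a smaller one with baicalin. Interferons act through transcription factors that bind the interferon-stimulated response element in front of antiviral genes. With DMSO, 33 of 39 genes were higher in the basal-labelled library, 0 in the luminal-labelled one, and the median was -2.05. With baicalin 4 of 39 passed the threshold toward the basal label, 0 toward the luminal label, and the median was -0.42. The 4 genes became 14 on the TPM scale or with a pseudocount of 0.1, and 16 with no pseudocount. Of the 39 genes, 30 had a difference narrower by more than 1, beside 1.99% of those 17787 genes. Isg15, a ubiquitin-like antiviral protein, was at 6.77 and 61.1 FPKM with DMSO and at 3.14 and 6.46 FPKM with baicalin. Ifit1, which binds foreign RNA, was at 1.3 and 19.3 FPKM and at 0.51 and 1.5 FPKM, and Gbp3, a guanylate-binding GTPase, was at 1.76 and 20.7 FPKM and at 1.14 and 1.13 FPKM. In each of these genes the basal-labelled DMSO library was the highest of the 4 by far and the treated libraries were both low. At such levels the added 1 FPKM understates a difference, so part of the narrowing may rest on it. Bst2, the membrane tether of virus particles, and Rsad2, the antiviral enzyme viperin, had the widest differences with baicalin (18.1 and 49.1 FPKM and 0.704 and 3.43 FPKM). Irf1, itself an interferon-induced transcription factor, was the most positive member at 15.5 and 9.94 FPKM. Ifit3, Oas1a and Mx1 have near-identical copies and their levels are uncertain.

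The response element is the 4 bases GAAA, any 2 bases, and GAAA again, and was searched on both strands in the 250 bases before the start of transcription. It was found in 14 of the 28 listed genes with a RefSeq promoter (50%) and in 3.46% of all 27025 genes with one. Windows of 4 genes are shown (RefSeq, GRCm38.p6), each 5′ to 3′ on the strand of its gene with the matching bases in capitals, where runs of TTTC are the element read on the other strand: Isg15 (chr4:156200855-156200916, minus strand), Ifit1 (chr19:34640765-34640833, plus strand), Ifit3 (chr19:34583353-34583436, plus strand) and Gbp3 (chr3:142559979-142560034, plus strand).
Isg15: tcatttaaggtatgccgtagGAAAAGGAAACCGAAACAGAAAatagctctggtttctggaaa
Ifit1: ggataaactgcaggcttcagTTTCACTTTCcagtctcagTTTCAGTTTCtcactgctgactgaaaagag
Ifit3: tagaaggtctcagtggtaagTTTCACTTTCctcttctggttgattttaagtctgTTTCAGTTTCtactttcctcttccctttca
Gbp3: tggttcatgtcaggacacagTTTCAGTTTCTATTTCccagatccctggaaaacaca
The 4 genes had differences of -3.00, -3.14, -3.04 and -2.98 with DMSO and of -0.85, -0.73, -0.88 and 0.01 with baicalin. The letters describe the sequence and say nothing about binding in these cells.

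Chemokines and cytokines moved in the same sense. Of 31 compared with DMSO, 17 were higher in the basal-labelled library and 5 in the luminal-labelled one (median -1.31), and of 30 compared with baicalin 4 and 6 were (median 0.05). Ccl2, which attracts monocytes, was at 1.18 and 33.6 FPKM with DMSO and at 4.04 and 4.03 FPKM with baicalin, so that a difference of -3.99 closed. Il1a, an epithelial alarmin, was at 1.81 and 39.3 FPKM and at 18.4 and 13.5 FPKM, and Tnf was at 6.46 and 54.4 FPKM and at 28.2 and 39.4 FPKM. The treated libraries were thus close for genes that had differed widely. Lif and Csf3, cytokines of the IL-6 and colony-stimulating families, kept a higher level in the basal-labelled library (14.5 and 64.2 FPKM and 9.56 and 39.8 FPKM), and Cxcl12 and Cxcl14 in the luminal-labelled one (7.14 and 0.712 FPKM and 6.84 and 0.405 FPKM). The 14 antigen presentation genes compared had differences from 0.04 to 1.56 with baicalin (median 0.26) and, over 16 genes, from -1.12 to 0.36 with DMSO (median -0.43), and only Cd74, the class II invariant chain, passed the threshold with baicalin (3.3 and 0.455 FPKM). B2m, the class I light chain, was at 429 and 308 FPKM with baicalin and at 299.5 and 513 FPKM with DMSO. Of 17 acute-phase and antimicrobial genes, 4 and 5 passed the threshold, with the defensin Defb14 at 14.7 and 0.483 FPKM on the luminal-labelled side and the secreted proteins Cp (27.9 and 214 FPKM) and Wfdc2 (58 and 362 FPKM) on the basal-labelled side.

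Wnt ligands act through Frizzled receptors and Notch ligands through contact with the next cell, and both pathways set cell fates in the mammary duct. Of 36 Wnt pathway genes compared, 11 were higher in the luminal-labelled baicalin library and 4 in the basal-labelled one (median 0.45; 7 and 4 of 34 with DMSO, median 0.40). Wnt5a was at 19.4 and 0.498 FPKM with baicalin and Wnt10a at 8.63 and 1.08 FPKM, while Wnt7b, at 7.05 and 47.9 FPKM, and Wnt5b, at 2.85 and 14.9 FPKM, were higher in the basal-labelled library. The 4 genes past the threshold toward the basal label were all Wnt ligands. The pathway's feedback target Axin2 was at 3.46 and 0.197 FPKM with baicalin and at 1.7 and 0.366 FPKM with DMSO, and the inhibitors Nkd2 and Dkk3 were at 111 and 9.61 FPKM and 20.2 and 1.79 FPKM. Of 19 Notch pathway genes, 5 were higher in the luminal-labelled library and 0 in the basal-labelled one. Those were the ligands Jag1 (175 and 13.7 FPKM), Jag2 and Dll1, and the targets Hey1 and Nrarp (16.8 and 4.03 FPKM), whereas the receptors Notch1 (0.41), Notch2 (0.02) and Notch3 (0.33) and the target Hes1 (-0.59) lay within 1. Of 11 Hedgehog genes, the co-receptors Gas1 (13.1 and 0.416 FPKM) and Boc (22.5 and 9.07 FPKM) and the transcription factor Gli3 (9.4 and 0.632 FPKM) were higher in the luminal-labelled library, and the co-receptor Cdon (3.38 and 10.4 FPKM) in the basal-labelled one.

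Growth factor families held single genes with wide differences around a median near 0, whose sign in the EGF, TGF-beta and insulin-like growth factor lists depended on the scaling. Among 31 TGF-beta and BMP genes, 5 and 4 passed the threshold, and Bmp7 was at 16.8 and 0.0981 FPKM with baicalin and at 21.2 and 0.326 FPKM with DMSO. Inhba, the activin subunit, and Ltbp2, which resembles the TGF-beta carriers, were higher in the basal-labelled library (24.2 and 94 FPKM and 12 and 57.5 FPKM). Among 14 insulin-like growth factor genes, the binding proteins Igfbp3, Igfbp2 and Igfbp6 were higher in the luminal-labelled library (11.1 and 0.134 FPKM for Igfbp2 and 11.2 and 0.31 FPKM for Igfbp6), and Grb10, an adaptor that dampens the receptor, in the basal-labelled one (2.46 and 19.3 FPKM). Igfbp5, the most abundant of the binding proteins with DMSO, was at 749 and 211 FPKM there and at 111 and 70.3 FPKM with baicalin. Among 14 EGF family genes, Egfr was at 23.7 and 10.1 FPKM with baicalin and at 16.3 and 14.4 FPKM with DMSO, and the ligands Areg and Hbegf were the members higher in the basal-labelled library, Hbegf only without centring (-1.04, and -0.95 after it). The list of 20 YAP genes holds partners and regulators of YAP, such as Tead2 and Amot, beside its targets. Of these, 5 were higher in the basal-labelled baicalin library (Ankrd1, Amot, Areg, Ctgf and Tead2). In the luminal-labelled one 1 was higher (2 after centring), Fstl1, which shares a near-identical stretch with Xdh. The median was -0.45 (-0.29 with DMSO). Ctgf, a matricellular target of YAP, was at 39.7 and 106 FPKM, while Yap1 itself was at 23.2 and 19.6 FPKM.

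Among the stress and metabolic lists, the p53 targets and the sterol genes had the medians farthest from 0. Of 26 p53 target genes, 6 were higher in the basal-labelled baicalin library and 1 in the luminal-labelled one, with a median of -0.66. With DMSO the counts were 2 and 2 and the median was -0.48. Of the 26 differences, 21 were negative with baicalin and 16 with DMSO. Under baicalin, 3 passed the threshold toward the basal label after centring and 8 on the TPM scale. Bax, which permeabilises mitochondria in apoptosis, was at 20.6 and 50.2 FPKM with baicalin and at 12.8 and 20.5 FPKM with DMSO, and Gadd45a, a DNA damage response gene with an antisense overlap of 19.1% of its exon bases, was at 46.6 and 141 FPKM and at 7.32 and 30.9 FPKM. The member on the other side was Perp, a p53 and p63 target found in desmosomes (755 and 232 FPKM). Of 28 sterol and fatty acid synthesis genes, 9 were higher in the luminal-labelled baicalin library and 0 in the basal-labelled one (median 0.61), against 0 and 1 with DMSO (median -0.12). Nsdhl and Cyp51, enzymes of cholesterol synthesis, were at 35.4 and 9.88 FPKM and 59.5 and 23.5 FPKM with baicalin and at 29.6 and 26.4 FPKM and 54.9 and 59.7 FPKM with DMSO, and Hmgcs1, at the entry of the pathway, was at 79.5 and 37.8 FPKM and at 81.8 and 96.4 FPKM. These enzymes were lower in the basal-labelled cells with baicalin than with DMSO. The fatty acid synthase Fasn was near equal (46.9 and 52.9 FPKM).

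Of 30 NRF2 target genes, the antioxidant set, 4 were higher in the luminal-labelled baicalin library and 3 in the basal-labelled one (1 after centring). The median was -0.04, which turned to 0.05 after centring. With DMSO 6 and 0 of 29 passed the threshold, and the median was 0.11. Nqo1, a quinone reductase, was at 469.6 and 135 FPKM with baicalin and at 143 and 32.3 FPKM with DMSO, and Hmox1, which breaks down haem, was at 159.9 and 173 FPKM and at 46.9 and 29.7 FPKM. Both were higher with baicalin under both labels, and only Nqo1 kept a wide difference between them. Of 30 ATF4 target genes, 1 and 4 passed the threshold with baicalin (median -0.28) and 0 and 5 with DMSO (median -0.41). Gdf15, a stress cytokine, was at 9.15 and 60.6 FPKM with baicalin and at 1.51 and 3.26 FPKM with DMSO. Of 24 glycolysis and hypoxia genes, 3 were higher in the basal-labelled baicalin library (5 on the TPM scale) and 2 in the basal-labelled DMSO library. The medians were -0.21 and -0.20. Among the 3 was Egln3, a hypoxia-induced hydroxylase (1.56 and 7.67 FPKM with baicalin and 3.32 and 3.14 FPKM with DMSO). No member of the ribosomal protein list (28 genes, median 0.01) or of the respiratory chain list (24 genes, median 0.08) passed the threshold. With DMSO the ribosomal median was 0.54 over the same 28 genes, and the sign of the baicalin median turned on the TPM scale (-0.06). Of 29 lysosome genes, 1 passed the threshold, the protease Ctsz (37.8 and 84.7 FPKM), higher in the basal-labelled library, beside 2.81% of all genes compared. Of 24 immediate-early genes, 2 and 3 did (2 and 6 on the TPM scale), with Jun at 129.8 and 53 FPKM and the phosphatase Dusp4 at 35.7 and 107 FPKM.

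Matrix genes and surface proteins completed the comparison. Of 30 collagens and matrix enzymes, 12 were higher in the luminal-labelled baicalin library and 5 in the basal-labelled one (3 after centring), against 5 and 10 with DMSO, and the median went from -0.48 to 0.25. Col7a1, the anchoring fibril collagen, was at 35.3 and 2.14 FPKM with baicalin and at 45.2 and 17.9 FPKM with DMSO. Mmp13, a collagenase, was at 1.31 and 53.4 FPKM with DMSO and at 3.93 and 9.11 FPKM with baicalin, a difference of -4.56 that shrank to -1.04. Of 13 integrins outside the hemidesmosome list, 1 passed the threshold, the leukocyte beta chain Itgb2 (0.476 and 3.23 FPKM). Over all genes compared, 4.88% passed it toward the luminal label and 2.81% toward the basal label. Of 18 surface sorting markers, 3 were higher in the luminal-labelled library and 1 in the basal-labelled one, with the adhesion molecule Icam1 at 39.6 and 5.41 FPKM. Markers of other cells were counted in the same way. Of 15 fibroblast markers, 4 were higher in the luminal-labelled library (9 on the TPM scale, and 13 with a pseudocount of 0.1 or none) and 0 in the basal-labelled one, with a summed level of 185 and 18.6 FPKM with baicalin and 299.6 and 56.2 FPKM with DMSO, most of it Postn, the matrix protein periostin (167 and 13.5 FPKM), while Col1a1 was at 2.74 and 0.841 FPKM and Dcn at 1.7 and 0.431 FPKM. Of 15 immune markers 8 could be compared and 2 passed the threshold, Cd68 and Cd14, both toward the basal label, with summed levels of 26.5 and 98.9 FPKM, and the defining markers Ptprc, Cd3e and Itgam were at 0 in at least 1 treated library. None of 12 endothelial markers passed it (3 on the TPM scale), with summed levels of 8.30 and 2.85 FPKM. The part of such cells in the differences was not tested. The antibodies to CD31, CD45 and TER119 name no fibroblast marker, while the study also describes both cell types as positive for CD24.

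The differences under baicalin were then set beside those of the DMSO pair. Over the 17787 genes above 0 in all 4 libraries the differences correlated with Pearson's r = 0.62 and Spearman's rho = 0.54, a description across genes that share libraries and depth and are not replicates. Of the 932 genes of this set higher in the luminal-labelled baicalin library, 438 were also higher there with DMSO, 470 did not pass the threshold and 24 were higher in the basal-labelled library. Of the 531 genes higher in the basal-labelled baicalin library, 251 were higher there with DMSO, 275 did not pass and 5 were on the other side. The difference was wider with baicalin by more than 1 for 387 genes (2.18%) and narrower for 354 (1.99%). Among the widened genes 291 had the higher level in the luminal-labelled baicalin library, and in 269 of these the basal-labelled level was lower with baicalin than with DMSO, while in 191 the luminal-labelled level was higher. The 6 most widened genes were Krt6a, Krt5, Krt16, Krt6b, Sprr1a and Col17a1, from 6.36 to 3.82 on the log2 scale. The 6 most narrowed were Ccl2, Pgm5, Acod1, Mmp13, Il1a and Krt15, from -3.99 to -3.34. Pgm5, a phosphoglucomutase-like protein of adherens junctions, was at 26.8 and 0.418 FPKM with DMSO and at 0.711 and 0.341 FPKM with baicalin, and Acod1, which makes itaconate in activated macrophages, was at 0.118 and 12.8 FPKM and at 0.554 and 0.602 FPKM. Of the 195 narrowed genes that were higher in the basal-labelled library with DMSO, 165 were lower with baicalin in the basal-labelled cells and 149 were higher with baicalin in the luminal-labelled cells.

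**Figure D4:**
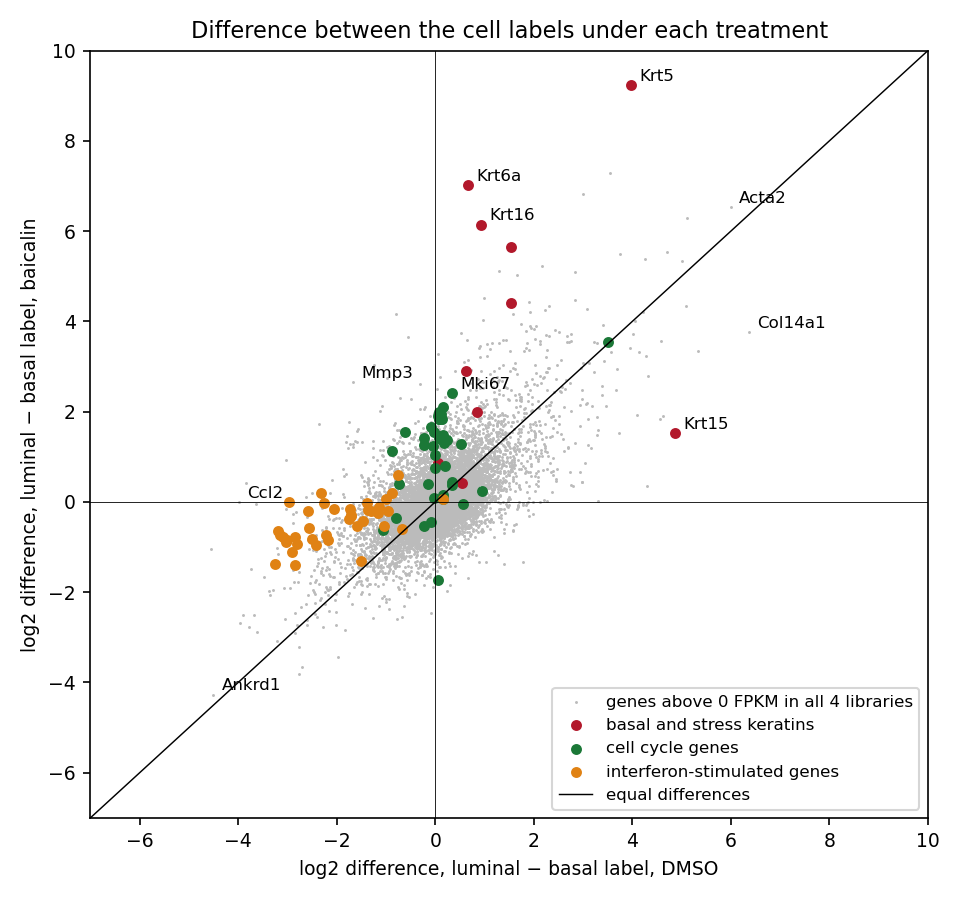
Log2 difference between the cell labels with DMSO (horizontal) and with 100 μM baicalin (vertical), 1 point per gene above 0 FPKM in all 4 libraries, with 3 gene lists in colour; the line marks equal differences. Krt6a lies at 0.67 and 7.03, cell cycle genes cluster above the line near a DMSO difference of 0, and interferon-stimulated genes lie above the line to the left.

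**Figure D5:**
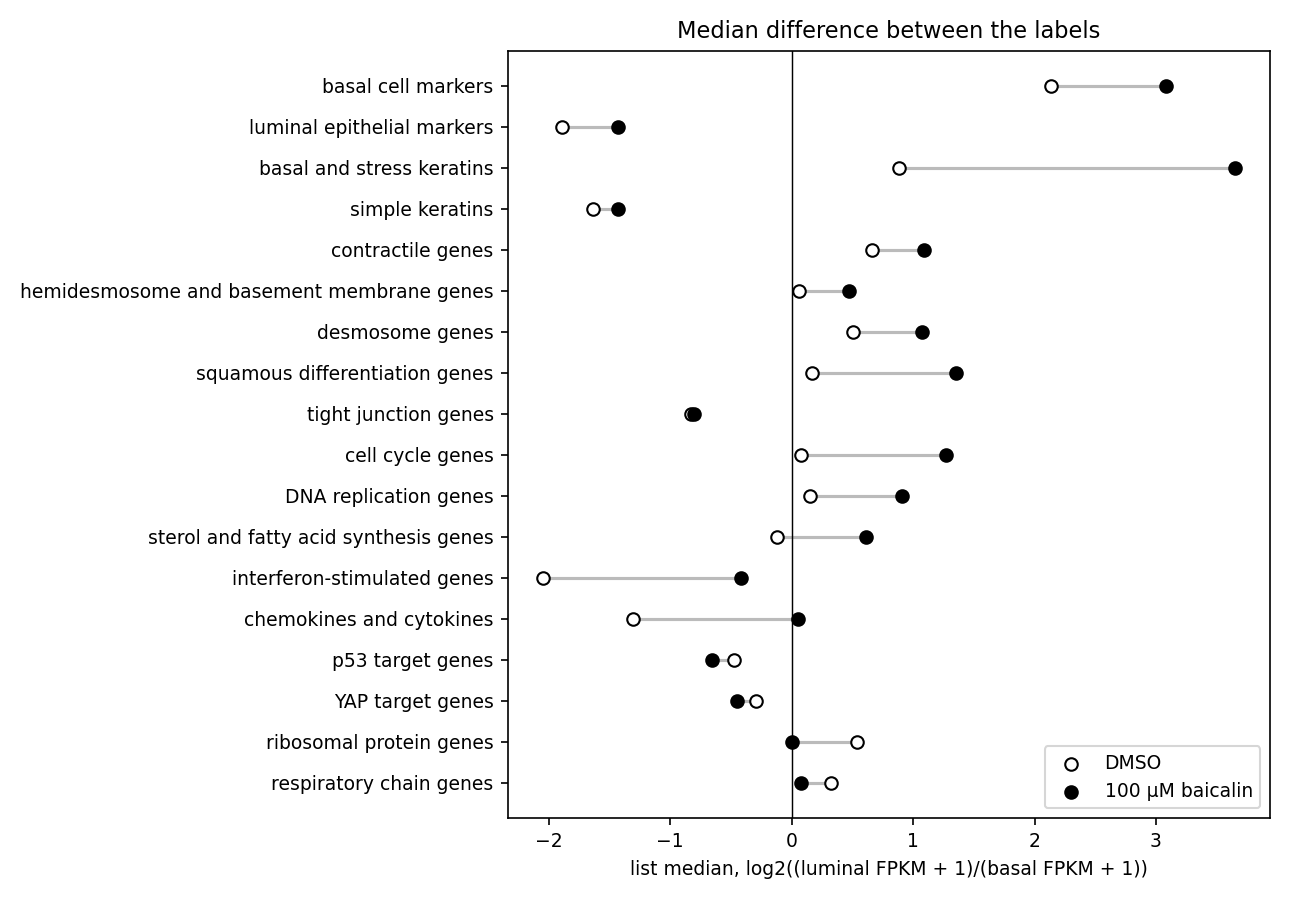
Median log2 difference between the cell labels over the compared members of 18 gene lists, open circles for DMSO and filled circles for 100 μM baicalin. The medians of the basal and stress keratin, cell cycle, squamous, interferon and chemokine lists lie far apart between the treatments. Those of the simple keratins lie at -1.64 with DMSO and -1.43 with baicalin. Those of the tight junction genes nearly coincide at -0.83 and -0.80.

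For 29 genes the difference passed the threshold in opposite directions in the treated and the DMSO pair, 19 of them protein-coding with at least 5 FPKM in a library, and 18 of these 19 were higher in the luminal-labelled library with baicalin and in the basal-labelled library with DMSO. Mmp3, the stromelysin that degrades basement membrane, was at 43.5 and 6.02 FPKM with baicalin and at 9.49 and 32.2 FPKM with DMSO. Tnc, the wound-associated matrix protein tenascin C, was at 133 and 29.6 FPKM and at 52 and 111 FPKM, and Saa3, an acute-phase protein, was at 14 and 3.52 FPKM and at 0.238 and 5.35 FPKM. In these 3 genes the luminal-labelled level was higher and the basal-labelled level lower with baicalin than with DMSO. Mmp3 shares a stretch of near-identical sequence with Mmp10, which also moved from -3.03 with DMSO to 0.94 with baicalin.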

How the data were processed

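RNA was sequenced from 4 cultures of sorted mouse mammary cells, 1 library for each cell label and treatment. The authors deposited 1 table of FPKM values, fragments scaled to exon length and library depth, for 54446 genes. Per the labels, the processing notes name Bowtie 0.12.2 and the builds mm8 and GRCm38, whereas the study's methods name HISAT2 and featureCounts with GRCm38 annotation, and how these fit together is not given in the sources used here. Whether counting used strand, which the library kit keeps, is not stated. Authors' fold changes and p-values were not used.

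Exon lengths came from GENCODE annotation of GRCm38, and multiplying FPKM by length gave whole fragments, within 0.1 of a fragment, for between 98.8% and 99.0% of the low genes, from which each library's depth was taken. Differences were computed with a pseudocount of 1 and counted past a threshold of 1 on the log2 scale, so that the change of low genes is understated. With 1 library per group there was no test, and exact 95% intervals describe counting error only. The scripts were tested on simulated data. The members and 43 gene lists were chosen with earlier results of these data known. Named genes were the 12 protein-coding genes of at least 5 FPKM with the largest difference in each direction, the 6 most widened, narrowed and opposite ones, the genes the study names, and list members. Python 3.11.15 with numpy 2.4.6, pandas 2.3.3 and scipy 1.17.1 was used. Near-identical copies were sought by aligning transcripts. The alternatives tried were other pseudocounts, filters, thresholds and scalings.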

Additional observations from a re-analysis of the deposited data

Results flagged for a closer look

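Among protein-coding genes with at least 5 FPKM in a library, 6 had the widest change of the cell label difference between treatments while passing 1 on the log2 scale in opposite directions, higher in the basal-labelled library with DMSO and in the luminal-labelled library with baicalin. With 1 library per condition, whether the differences under the treatments differ was not tested. The change was 4.33 for Mmp3, a stromelysin, from -1.66 with DMSO to 2.66 with baicalin. For Stmn2, a microtubule-destabilising protein of neurons, it was 4.29, from 1.74 and 5.52 FPKM with DMSO to 10.1 and 0.343 FPKM with baicalin. For Saa3, an acute-phase protein, it was 4.09, from -2.36 to 1.73. For Tmprss4, a membrane serine protease, it was 3.53, from 5.71 and 21.7 FPKM to 14.2 and 3.45 FPKM. For Gm47283, which shares near-identical sequence with Gm21887 and is uncertain, it was 3.25. For Tnc, tenascin C, it was 3.21, from -1.08 to 2.13.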

How the results depend on the processing

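In the order luminal-labelled higher, basal-labelled higher, wider and narrower with baicalin, the counts of 937, 540, 387 and 354 genes became 2145, 1449, 991 and 981 with a pseudocount of 0.1 and 2899, 2402, 1513 and 1589 with none. On the TPM scale they were 1480, 1134, 667 and 671, and past a threshold of 2 they were 243, 60, 46 and 49. With at least 1 FPKM in each library, 515, 209 and 195 genes were higher in the luminal-labelled library, wider and narrower, and the 392 higher in the basal-labelled one were within 1.5 times. The other filters and median centring left all of these counts within 1.5 times. List members past the threshold numbered 245 in all, 330 with a pseudocount of 0.1, 349 with none, 294 on the TPM scale and 87 past 2. No named gene past the threshold changed sign under any alternative. For TPM, the FPKM values of each library were rescaled by 1 factor, and the same 1 was added after that. The TPM counts therefore hold both the scaling and a changed weight of the added 1, which were not separated. The cause of the moves in these counts was not tested. A median over genes of at least 1 FPKM in both treated libraries was -0.08 in FPKM and -0.16 in TPM. No paired analysis was possible because the labels share no replicate numbers and each group has 1 library. Small fragment numbers limit ratios of low genes, such as that of Sostdc1, and the splitting of fragments between copies and between strands cannot be undone from FPKM.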

Other observations

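A few further gene families, some of whose members also stand in the lists above, were counted after their values had been seen, so the counts are descriptions. Over all genes compared, 4.88% and 2.81% passed the threshold toward the luminal and basal label with baicalin, and 4.6% and 3.6% with DMSO. Of 26 kallikrein genes, secreted serine proteases that include those loosening cell contacts in the outer skin, 7 were compared with baicalin, 6 were higher in the luminal-labelled library and 0 in the basal-labelled one (median 1.35), beside 0 and 2 of 8 with DMSO (median -0.26). Klk7 was at 35.5 and 0.598 FPKM with baicalin and at 4.55 and 1.81 FPKM with DMSO, and Klk6 was at 28.2 and 0.619 FPKM and at 3.65 and 7.12 FPKM. Klk8 was at 24.3 and 9.38 FPKM with baicalin and at 7.01 and 25.7 FPKM with DMSO, so that the library with the higher level differed between the treatments.

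Of 27 clade B serpins, intracellular protease inhibitors, 4 of 9 compared were higher in the luminal-labelled baicalin library and 0 in the basal-labelled one (median 0.99), beside 2 and 0 of 11 with DMSO (median 0.40). Serpinb2 was at 19.1 and 0.672 FPKM with baicalin and at 9.04 and 2.7 FPKM with DMSO. Of 14 S100 calcium-binding genes, 4 of 10 compared were higher in the luminal-labelled library and 0 in the basal-labelled one (median 0.72), beside 2 and 0 of 12 with DMSO, and S100a14 was at 131 and 11.9 FPKM and at 93.2 and 18.5 FPKM. Of 24 imprinted genes compared, which are expressed from 1 parental allele, 2 were higher in the luminal-labelled library (Mest and Plagl1) and 6 in the basal-labelled one (Peg3, Grb10, Cdkn1c, Slc22a18, Airn and Ppp1r9a), with a median of -0.14 under baicalin and -0.17 with DMSO. Peg3, a zinc finger protein, was at 5.7 and 61.1 FPKM with baicalin and at 3.18 and 27.5 FPKM with DMSO.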
